A study of Arabidopsis thaliana with 10 samples.

Results

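The genes described here are the UDP-glycosyltransferases (UGTs) and glutathione transferases (GSTs) of Arabidopsis thaliana. They were taken from the array's gene annotation as every probe set of a single gene whose symbol was UGT and a number, or GSTU, GSTF, GSTT, GSTZ or GSTL, with UGT88A1 left out. This gave 60 genes among 13513 single-gene probe sets, of which 46 were UGTs and 14 were GSTs. Each gene had 1 probe set. The GSTs comprised 11 genes of the tau class (GSTU), 2 of the phi class (GSTF) and 1 of the lambda class (GSTL), and no theta or zeta gene matched.

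Whole seedlings of the Col-0 background were measured on 10 Affymetrix ATH1 arrays, with 2 arrays in each of 5 groups. All 5 groups, controls included, carried the genotype Atglk1;Atglk2, which the labels describe as a transposon gene knock out; GLK1 and GLK2 are transcription factors that promote chloroplast development. Seedlings were raised for 10 days on plates with hygromycin B, in a cycle of 16 h light and 8 h dark, and were then shaken in flasks of liquid medium, so that a sample pools the seedlings of a flask. Nothing in the labels says whether the 2 samples of a group came from separate cultures, and p-values therefore measure only the spread between these samples, perhaps only a technical one. The controls received the solvent DMSO and were sampled at 0 h, 4 h and 24 h, and the remaining seedlings received dexamethasone, a synthetic glucocorticoid that plants lack and that serves as a chemical switch, and were sampled at 4 h and 24 h. The labels name no transgene, and the series title gives the targets of AtGLK1 as the subject.

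UGTs transfer a sugar, usually glucose, from a UDP-sugar to hormones, phenolic compounds, sterols and foreign chemicals, which makes these molecules more soluble and often inactive or storable in the vacuole. GSTs join the tripeptide glutathione to reactive compounds or carry such compounds, and the tau and phi classes are found in plants and are known for induction by herbicides, oxidants and pathogens. Both families have many members that lie side by side in the genome as copies of each other, and in plants both are regarded as the conjugating step of detoxification, followed by export of the conjugate into the vacuole.

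The median signal of the arrays lay between 33.9 and 35.9, on the linear intensity scale of the deposited table, and the correlation of replicate arrays lay between 0.970 and 0.987. The axis with most of the variance, 31.3%, set the 4 arrays at 4 h apart from the rest, and the next, 23.4%, set apart control 24 h replicate 1 and dexamethasone 4 h replicate 2. These 2 arrays belong to different groups, and the values they move are given below as counts and, for the members described in most detail, with and without them. Leaf markers were strong on every array, with signals of at least 837 for LHCB4.2 and 4303 for RCA, and the root hair gene EXPA7 had signals of at least 32.1, so markers of both organs were present, as in whole seedlings. In such bulk samples, fewer cells that use a gene and less of its RNA per cell cannot be told apart.

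Of the 60 genes, 36 were tested: those with a signal above percentile 40 of the array on at least 2 arrays. They were 25 of the 46 UGTs, 22 of which exceeded that percentile on all 10 arrays, and 11 of the 14 GSTs, 9 of which did so. The other 21 UGTs and 3 GSTs (GSTF13, GSTU15 and GSTU21) were too dim to test. Among these, 20 UGTs never exceeded the percentile, and the highest single signals were 21.3 for UGT73B5 and 22.3 for GSTF13. The subfamilies were unevenly represented: 6 of 9 UGT71 genes were tested but 1 of 7 UGT73 genes, UGT73B1. The untested genes included UGT74F1, which conjugates salicylic acid, UGT84B1, which conjugates auxin, and UGT84A1, which makes glucose esters of hydroxycinnamic acids. Whether these genes were expressed at a low level or not at all is not known from such signals.

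**Figure D1:**
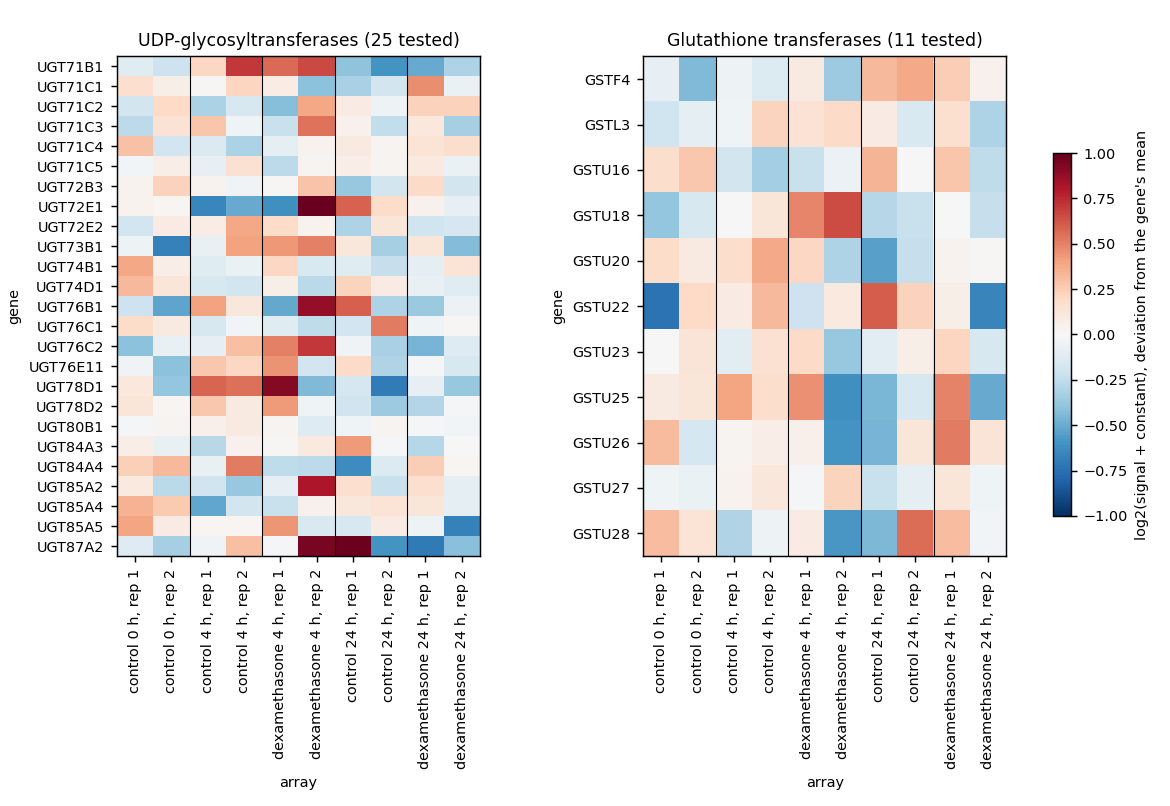
Tested UGTs (left, 25 genes) and GSTs (right, 11 genes) on the 10 arrays in columns; colour gives log2(signal + 4.35) minus the gene's mean over the arrays, with the colour scale ending at 1 and -1. UGT71B1 is red at 4 h and blue at 24 h with both treatments, and UGT87A2, UGT72E1 and UGT76B1 are red on dexamethasone 4 h replicate 2 and control 24 h replicate 1.

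The first comparison asked which of these genes responded to dexamethasone within 4 h. None of the 25 UGTs and 11 GSTs passed (limma, Benjamini-Hochberg adjusted p below 0.05 over 14575 probe sets), where 0.00686% of all probe sets passed. At an unadjusted p below 0.05 the counts were 2 UGTs and 1 GST, against 7.01% of all probe sets. The log2 change, dexamethasone minus control, was above 0 in 16 of 25 UGTs, with a median of 0.12, and in 4 of 11 GSTs, with a median of -0.07; the median over all probe sets was -0.01. The arrays of the 2 treatments did not overlap for 6 of 25 UGTs and 1 of 11 GSTs, shares below the 34.9% of all probe sets. Without the 2 arrays that stood apart, the change turned sign in 12 of the 36 members and moved by over 1.5 times in another 17. Such counts, here and below, were made for the members only. They do not show whether members moved more than other probe sets.

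The smallest p at 4 h belonged to GSTU18, a tau-class transferase. Its signals were 127 and 142 with dexamethasone and 89.0 and 97.0 in the controls, without overlap. The log2 change was 0.51 (SE 0.15, 95% interval 0.19 to 0.83, adjusted p = 0.651 by limma). UGT76C2, which N-glucosylates cytokinins, had signals of 64.8 and 75.3 with dexamethasone and 41.9 and 55.8 without. Its log2 change was 0.49 (SE 0.21, adjusted p = 0.707 by limma), so neither gene passed although all 4 of their dexamethasone arrays lay above the matched controls.

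The other members with small p at 4 h depended on 1 array. UGT72E1, which glucosylates the lignin precursors coniferyl and sinapyl aldehyde, had signals of 183 and 563 with dexamethasone and of 178 and 198 in the controls. Its log2 change was 0.77 (SE 0.36, adjusted p = 0.707 by limma). It was -0.03 without dexamethasone replicate 2, and without dexamethasone replicate 1 it was 1.56 and passed (limma adjusted p = 0.00565), the lone array being assumed to vary like the other groups. UGT85A2 had signals of 122 and 229 against 112 and 98.5, and its log2 change of 0.65 (SE 0.25, adjusted p = 0.707 by limma) was 0.21 without both of the arrays that stood apart.

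UGT84A4, GSTU20 and GSTU26 had lower mean signals with dexamethasone at 4 h. UGT84A4, which makes glucose esters of hydroxycinnamic acids, had signals of 22.3 and 22.2 with dexamethasone and 25.8 and 41.2 in the controls, a log2 change of -0.48 (SE 0.25, adjusted p = 0.722 by limma). It was -0.18 without control replicate 2 and -0.78 without control replicate 1. GSTU20, a tau-class transferase known as a partner of the jasmonate-conjugating enzyme FIN219, had 2117 and 1482 against 2072 and 2391, a log2 change of -0.33 (SE 0.16, adjusted p = 0.712 by limma) that was -0.07 without both arrays. GSTU26 had 113 and 70.6 against 111 and 114, a log2 change of -0.32 that was 0.0016 without dexamethasone replicate 2.

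At 24 h of dexamethasone none of the 25 UGTs and 11 GSTs passed either (limma, with 0.00686% of all probe sets passing). No UGT and 2 GSTs had an unadjusted p below 0.05, against 3.09% of all probe sets. The log2 change was above 0 in 10 of 25 UGTs, with a median of -0.03, and in 7 of 11 GSTs, with a median of 0.09, beside a median of 0.01 over all probe sets. Without the 2 arrays that stood apart the UGT median was 0.13, the change turned sign in 10 of the 36 members and it moved by over 1.5 times in another 15. All 4 tested leaf markers had log2 changes above 0, from 0.05 to 0.43, none of which passed. The arrays did not overlap for 7 of 25 UGTs and 5 of 11 GSTs, where 32.0% of all probe sets did not.

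GSTU20 and GSTU22 had the smallest p at 24 h, and they pointed in opposite directions although both are tau-class genes of 1 genomic cluster. GSTU20 had signals of 1879 and 1850 with dexamethasone and 1259 and 1564 in the controls, a log2 change of 0.41 (SE 0.16, 95% interval 0.05 to 0.77, adjusted p = 0.999 by limma). It was 0.25 without both of the arrays that stood apart. GSTU22 had 58.4 and 33.7 against 87.4 and 66.4, a log2 change of -0.72 (SE 0.31, adjusted p = 0.999 by limma) that was -0.36 without dexamethasone replicate 2. Neither gene's treated and control arrays overlapped.

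Among the UGTs at 24 h, UGT71C1 had signals of 63.6 and 42.8 with dexamethasone and 35.0 and 39.0 in the controls, a log2 change of 0.45 (SE 0.22, adjusted p = 0.999 by limma) that was 0.19 without dexamethasone replicate 1. UGT84A4 had 33.4 and 27.9 against 16.2 and 24.6, a log2 change of 0.52 that was 0.27 without both arrays. UGT74D1, which glucosylates auxin metabolites, had 118 and 114 against 146 and 133, a log2 change of -0.25. These 3 genes had arrays that did not overlap. UGT84A3, a near relative of UGT84A4, had 41.8 and 51.7 against 71.3 and 51.5, a log2 change of -0.35 with overlapping arrays that was -0.13 without both arrays. Of the GSTs, GSTU26 had 158 and 120 against 77.6 and 119, a log2 change of 0.50 that was 0.21 without both arrays, and GSTU27 had 309 and 274 against 242 and 264, a log2 change of 0.20.

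**Figure D2:**
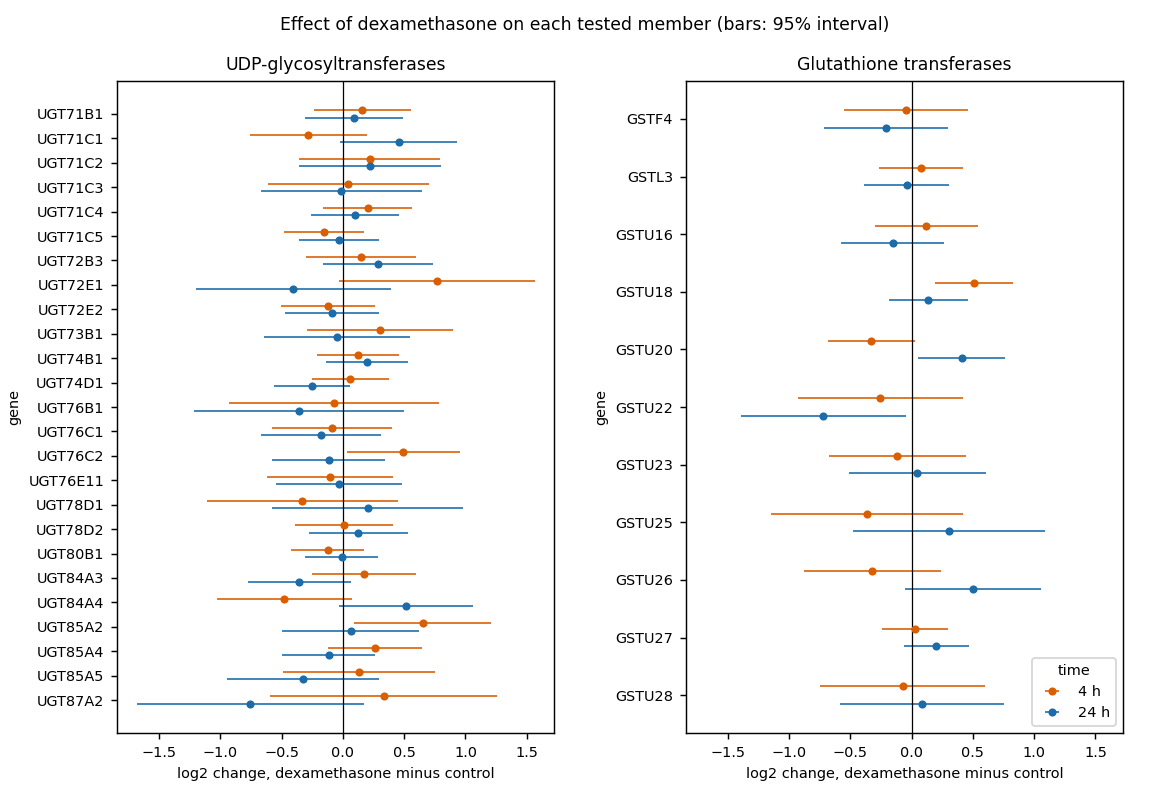
Log2 change with dexamethasone against the control at the same time for each tested UGT (left) and GST (right), at 4 h in orange and at 24 h in blue; points are limma estimates from 2 arrays per group and bars are 95% intervals. The intervals of GSTU18, UGT76C2 and UGT85A2 lie above 0 at 4 h, and that of GSTU20 lies above and that of GSTU22 below 0 at 24 h; none of these passed after adjustment.

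Averaged over both times, none of the 36 members passed (limma, with 0.0206% of all probe sets passing). No UGT and 2 GSTs had an unadjusted p below 0.05, against 4.39% of all probe sets. GSTU18 had a mean signal of 108 ± 31.4 with dexamethasone and 83.5 ± 11.6 in the controls (SD, n = 4 each), a log2 change of 0.32 (SE 0.10, adjusted p = 0.999 by limma). GSTU22 had 50.0 ± 12.1 and 71.0 ± 11.9, a log2 change of -0.49 (SE 0.22, adjusted p = 0.999 by limma). The 4 UGTs with the smallest p had log2 changes of 0.36 for UGT85A2, 0.22 for UGT72B3, 0.16 for UGT74B1 and 0.15 for UGT71C4. GSTU27 and GSTF4 followed among the GSTs, at 0.12 and -0.13. Without both of the arrays that stood apart, the averages were 0.23 for UGT85A2, 0.10 for UGT72B3, 0.28 for UGT74B1, 0.02 for GSTU27 and -0.03 for GSTF4, and the sign turned in 10 of the 36 members. Without dexamethasone 4 h replicate 2 alone, that of UGT85A2 was 0.14. No member had all 4 dexamethasone arrays on one side of all 4 controls, which 2.07% of all probe sets had.

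Whether the response differed between 24 h and 4 h was tested as an interaction, and again no member and 0% of all probe sets passed (limma). The unadjusted p was below 0.05 for 3 UGTs and 2 GSTs of the 36, where 5.48% of all probe sets reached it. The differences, 24 h minus 4 h on the log2 scale, were 0.74 for GSTU20, 0.99 for UGT84A4, 0.74 for UGT71C1, 0.82 for GSTU26 and -1.17 for UGT72E1, each with a limma adjusted p of 0.832. All 5 genes were among those with signals outside the range of the other arrays on control 24 h replicate 1 and dexamethasone 4 h replicate 2, both of which enter this difference with a minus sign. Without these 2 arrays the differences were 0.32 for GSTU20, 0.74 for UGT84A4, 0.43 for UGT71C1, 0.21 for GSTU26 and -0.17 for UGT72E1, each with a limma adjusted p of 0.999. Without dexamethasone 4 h replicate 1, by contrast, UGT72E1 passed, with a difference of -1.97 (limma adjusted p = 0.0106).

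The next comparisons asked how the families differed between times. Time since treatment and time of day cannot be told apart in this design, and comparisons that share a control group are not independent of each other. With both treatments in 1 comparison, 3 of the 36 members passed between 24 h and 4 h (limma), and all 3 were lower at 24 h: UGT71B1, UGT76C2 and GSTU18. As counts these were 2 of 25 UGTs and 1 of 11 GSTs, where 7.70% of all probe sets passed in either direction and 3.45% passed as lower at 24 h. The log2 change was below 0 in 17 of 25 UGTs, with a median of -0.11, and in 6 of 11 GSTs, with a median of -0.02, beside a median of 0.01 over all probe sets. Of 4 tested leaf markers 1 passed: LHCB4.2, a light-harvesting protein of photosystem II, was higher at 24 h by a log2 change of 0.92 (limma adjusted p = 2.7e-04). The other 3 and the root hair gene EXPA7 did not pass, and the part of these markers in the members' values was not tested.

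UGT71B1 fell the most of the 3. Its signals at 0 h were 56.7 and 53.3, at 4 h 72.3 and 104 in the controls and 94.2 and 101 with dexamethasone, and at 24 h 46.0 and 39.5 in the controls and 42.4 and 49.2 with dexamethasone. All 4 arrays at 24 h lay below all 4 at 4 h, which 6.52% of all probe sets showed and no other member did. The log2 change was -0.99 (SE 0.13, 95% interval -1.27 to -0.71, adjusted p = 6.1e-04 by limma), and it passed in all 20 fits that were run. In the controls alone it was also the only member to pass between 24 h and 4 h, where 3.40% of all probe sets passed, with a log2 change of -0.96 (SE 0.18, adjusted p = 0.0138 by limma). The groups of these controls did not overlap for 14 of 25 UGTs and 6 of 11 GSTs, beside 47.6% of all probe sets. The control result of UGT71B1 was lost without control 4 h replicate 2 (limma adjusted p = 0.126) and without control 24 h replicate 2 (limma adjusted p = 0.0663).

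GSTU18 had signals of 66.9 and 79.1 at 0 h. At 4 h they were 89.0 and 97.0 in the controls and 127 and 142 with dexamethasone, and at 24 h 72.2 and 75.7 in the controls and 89.0 and 75.0 with dexamethasone. Its log2 change from 4 h to 24 h was -0.50 (SE 0.10, adjusted p = 0.0116 by limma), and the arrays of the times met at 89.0. The adjusted p was 0.0534 without control 4 h replicate 2, 0.0634 without dexamethasone 24 h replicate 2 and 0.0566 without both of the arrays that stood apart (limma).

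UGT76C2 had signals of 32.4 and 42.1 at 0 h. At 4 h they were 41.9 and 55.8 in the controls and 64.8 and 75.3 with dexamethasone, and at 24 h 43.4 and 34.6 in the controls and 31.1 and 40.3 with dexamethasone. Its log2 change was -0.60 (SE 0.15, adjusted p = 0.0318 by limma), with overlapping arrays. It was lost without the filter on dim probe sets (limma adjusted p = 0.0751), in the fits without control 4 h replicate 2, control 24 h replicate 2, dexamethasone 4 h replicate 2 or dexamethasone 24 h replicate 1, with limma adjusted p between 0.0776 and 0.138, and without both of the arrays that stood apart (0.0543).

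Of 7 genes listed for flavonoid glycosylation 3 had a probe set, and both of those tested had lower values at 24 h without passing. UGT78D1, a flavonol 3-O-rhamnosyltransferase, had signals of 77.7 and 53.7 at 0 h, 110 and 107 in the 4 h controls, 140 and 51.7 with dexamethasone at 4 h, 63.3 and 42.4 in the 24 h controls and 67.5 and 54.1 with dexamethasone at 24 h. The value of 51.7 came from dexamethasone 4 h replicate 2, the only array at 4 h that was not above all the others at 0 h and 24 h. The log2 change of UGT78D1 was -0.74 (SE 0.25, adjusted p = 0.111 by limma), and without that array it was -1.08 and passed (limma adjusted p = 0.00191). UGT78D2, a flavonoid 3-O-glucosyltransferase, had a log2 change of -0.40 (SE 0.13, adjusted p = 0.0907 by limma), which passed without the same array at -0.52 (limma adjusted p = 0.0278).

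Without both arrays that stood apart, 6 UGTs and no GST passed between 24 h and 4 h, where 7.95% of all 14395 probe sets tested in that fit passed. They were UGT71B1 at a log2 change of -1.02, UGT78D1 at -1.21, UGT78D2 at -0.56, UGT76E11 at -0.54, UGT87A2 at -0.64 and UGT72E1 at 0.67. UGT72E1 was thus the one member higher at 24 h in that fit (limma adjusted p = 9.1e-04). Its signals other than on those 2 arrays were 178, 198 and 183 at 4 h and 320, 291 and 266 at 24 h, with 289 and 286 at 0 h.

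**Figure D3:**
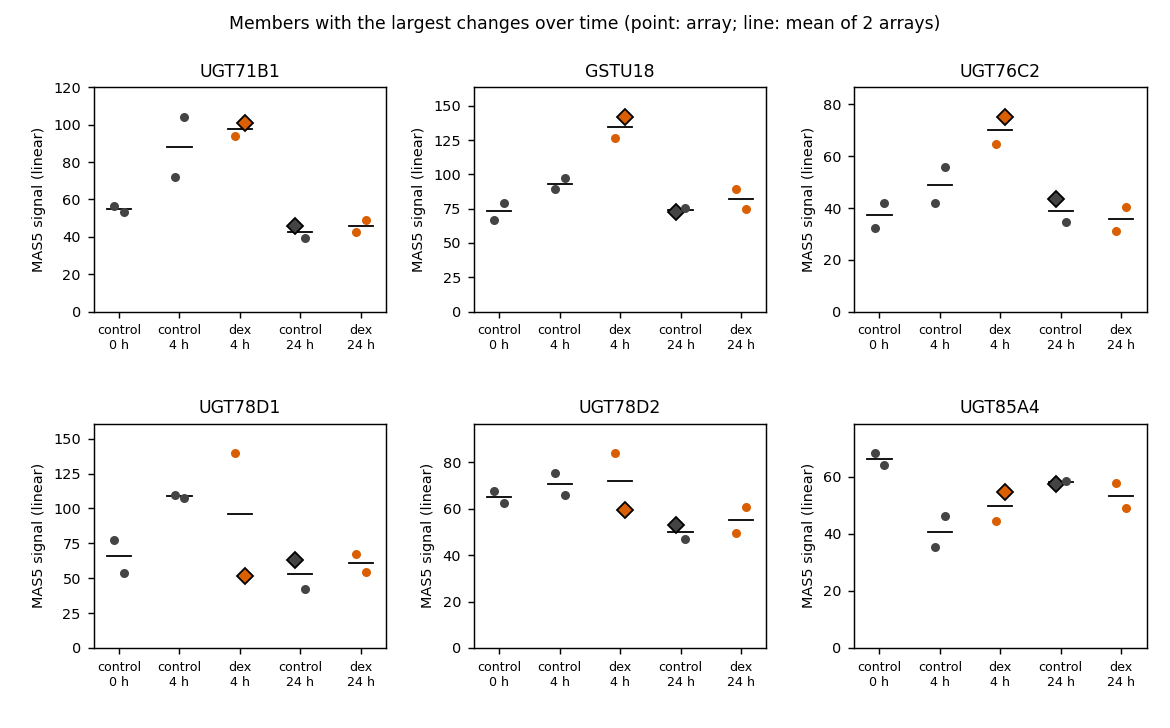
Signals on the linear scale of 6 members by group; points are arrays (grey, control; orange, dexamethasone), diamonds are the 2 arrays that stood apart and lines are means of 2 arrays. UGT71B1, GSTU18 and UGT76C2 have their highest means at 4 h, and UGT78D1 at 4 h with dexamethasone spans 51.7, a diamond, to 140.

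Between 4 h and 0 h in the controls none of the 36 members passed (limma), where 2.63% of all probe sets did, and 3 UGTs and 2 GSTs had an unadjusted p below 0.05 (13.6% of all probe sets). Of 4 tested leaf markers, LHCB4.2 was lower at 4 h by a log2 change of -0.84 (limma adjusted p = 0.0115). LHCB4.1, PSAE-1 and RCA did not pass, with log2 changes of -0.03, 0.18 and 0.03. The part of LHCB4.2 in the members' values was not tested. UGT85A4 came nearest, with signals of 35.5 and 46.1 at 4 h and 68.4 and 64.1 at 0 h, a log2 change of -0.65 (SE 0.17, adjusted p = 0.085 by limma). UGT71B1 had a log2 change of 0.62 (limma adjusted p = 0.119), UGT74D1 one of -0.39 and GSTU16 one of -0.48. The groups did not overlap for 12 of 25 UGTs and 6 of 11 GSTs, near the 44.5% of all probe sets. UGT72E1, at -0.60, and UGT78D1, at 0.71, passed with only the arrays of the groups compared (limma adjusted p = 0.0144 and 0.0403), where 574 of all probe sets passed. Both log2 changes were the same in fits that left out arrays of other groups, since such arrays do not enter them.

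Between 24 h and 0 h in the controls no member and 0% of all probe sets passed (limma), and the unadjusted p was below 0.05 for 2 UGTs and 3 GSTs, against 4.54% of all probe sets. The groups did not overlap for 8 of 25 UGTs and 5 of 11 GSTs, beside 32.5% of all probe sets. GSTU22, at 0.69, and UGT84A4, at -0.66, had the widest differences among the 5 genes; these were 0.22 for GSTU22 without control 0 h replicate 1 and -0.42 for UGT84A4 without control 24 h replicate 1. Between 24 h and 4 h in the controls, GSTU20 was close to passing, with signals of 1259 and 1564 at 24 h and 2072 and 2391 at 4 h and a log2 change of -0.66 (SE 0.16, adjusted p = 0.0505 by limma). With only the arrays of the groups compared GSTU20 passed (limma adjusted p = 0.0424), where 443 of all probe sets did. Its log2 change was the same without dexamethasone 4 h replicate 1 or replicate 2, since neither array enters it. The change was -0.82 without control 24 h replicate 2 and -0.51 without both arrays that stood apart.

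The 2 arrays that stood apart were chosen by all probe sets together, so their values in the members are a description with no test. Of the 25 UGTs, 4 were above all 8 other arrays on both and 4 were below on both, and of the 11 GSTs none was above and 3 were below; the shares of all probe sets were 5.51% above and 5.54% below. Against the replicate array of the same group, both arrays were higher in 12 of 25 UGTs and lower in 6, and higher in 3 of 11 GSTs and lower in 6. Over all probe sets these shares were 25.1% and 32.3%. By more than 0.5 log2 units, 2 of 25 UGTs and no GST were higher on both, beside 2.66% of all probe sets. No UGT and 2 of 11 GSTs were lower on both by that much, beside 1.17% of all probe sets.

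The 4 UGTs above the range were UGT87A2, which is known to act on flowering time, UGT76B1, which glucosylates isoleucic acid, salicylic acid and N-hydroxypipecolic acid and restrains immunity, UGT72E1 and UGT84A3. UGT87A2 had signals of 159 on control 24 h replicate 1 and 156 on dexamethasone 4 h replicate 2, and at most 97.7 on the other arrays. UGT76B1 had 102 and 124, and at most 87.8 elsewhere. UGT72E1 had 426 and 563 against at most 320, and UGT84A3 had 71.3 and 55.9 against at most 54.5. Each of these genes thus had its highest signals on arrays of different treatments and times.

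Below the range were UGT84A4, UGT71C1, UGT76C1, which like UGT76C2 N-glucosylates cytokinins, and UGT80B1, a sterol glucosyltransferase. UGT84A4 had 16.2 and 22.2 against at least 22.3, and UGT71C1 had 35.0 and 32.8 against at least 39.0. UGT76C1 had 31.4 and 29.8 against at least 32.1, and UGT80B1 had 61.3 and 57.6 against at least 62.1, so some margins were slim. The GSTs below it were GSTU20, with 1259 and 1482 against at least 1564, GSTU26, with 77.6 and 70.6 against at least 96.1, and GSTU28, with 36.7 and 33.1 against at least 41.2. GSTU20, GSTU26 and GSTU28 are all tau-class genes, as are 9 of the 11 tested GSTs. Of 3 tested defence markers, 2 were above the range on the same arrays: the chitinase gene CHI, with 305 and 96.6 against at most 42.7, and WRKY53, a transcription factor of defence and senescence, with 40.8 and 30.4 against at most 16.4. PDF1.2, a jasmonate-responsive defensin gene, was within it. BCAT4, an enzyme of glucosinolate synthesis, was below it on both arrays, with signals of 630 and 649. The part of these markers or of the arrays in the members' values was not tested.

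**Figure D4:**
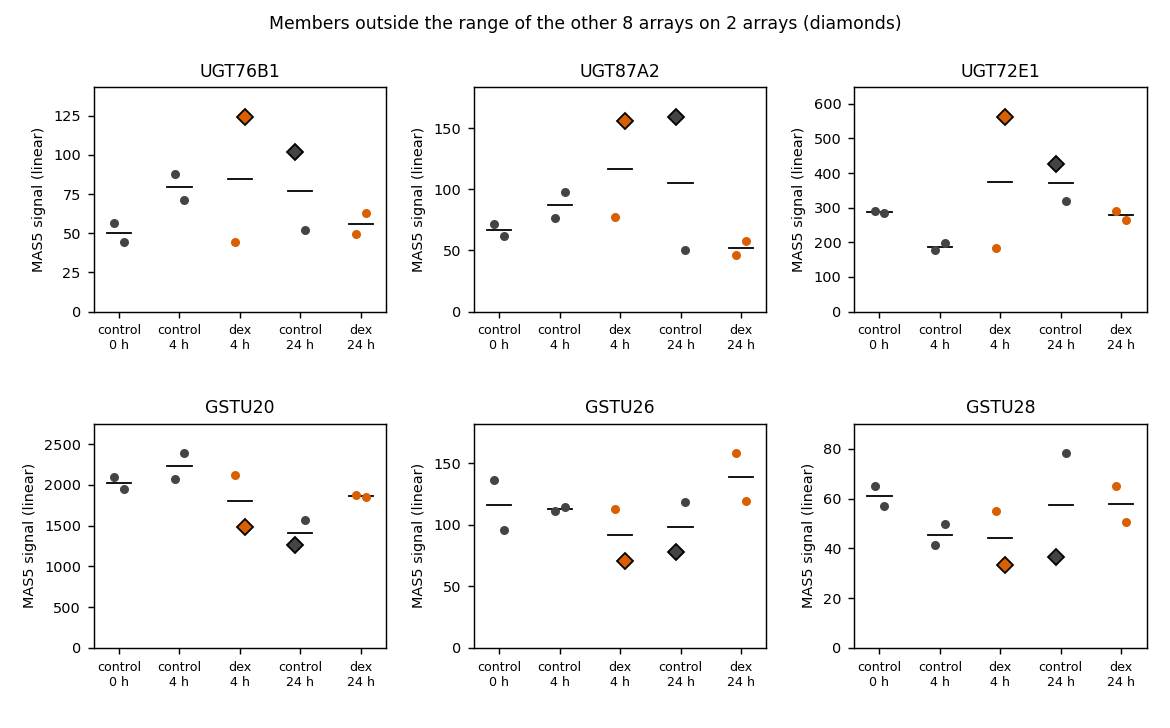
Signals on the linear scale of 6 members by group; points are arrays (grey, control; orange, dexamethasone), diamonds are control 24 h replicate 1 and dexamethasone 4 h replicate 2, and lines are means of 2 arrays. In the upper row UGT76B1, UGT87A2 and UGT72E1 have both diamonds above all points, and in the lower row GSTU20, GSTU26 and GSTU28 have both below.

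By role, the UGTs that conjugate hormones and immune signals were measured in few members. Of 7 genes listed for salicylate, jasmonate and immune signals, 5 had a probe set and 2 were tested, UGT76B1 and UGT71C3, and neither passed in any comparison. UGT76B1 had signals of 56.3 and 44.1 at 0 h, 87.8 and 71.1 in the 4 h controls, 44.7 and 124 with dexamethasone at 4 h, 102 and 52.0 in the 24 h controls and 49.6 and 62.7 with dexamethasone at 24 h. It was split within both groups that hold an array that stood apart, and its log2 change with dexamethasone was -0.07 at 4 h and -0.36 at 24 h. Without these arrays the changes were -0.77 and 0.09. UGT71C3, which glucosylates methyl salicylate, ranged from 17.1 to 34.8, with its highest value on dexamethasone 4 h replicate 2, and had changes of 0.04 and -0.01, which were -0.34 and 0.13 without these arrays.

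Of 3 genes listed for cytokinins, the 2 with a probe set were tested, and the correlation of UGT76C1 and UGT76C2 over the 10 arrays was -0.59. UGT76C1 had signals between 29.8 and 41.8 on 9 arrays and 54.0 on control 24 h replicate 2. Its log2 change with dexamethasone was -0.09 at 4 h and -0.18 at 24 h; the latter was -0.53 without both arrays that stood apart and 0.17 without control 24 h replicate 2. UGT74D1 was the single tested gene of 5 listed for auxin, and UGT71C5, which makes the glucose ester of abscisic acid, that of 4 listed for abscisate. UGT71C5 stayed between 67.7 and 91.5 on all arrays, with log2 changes of -0.15 and -0.03 with dexamethasone, the former -0.30 without both arrays. Neither of the 2 genes listed for brassinosteroids had a single-gene probe set.

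Of 8 genes listed for phenylpropanoids 6 had a probe set and 4 were tested. UGT84A3 and UGT84A4, which are direct neighbours, correlated at -0.53 over the 10 arrays and at 0.09 over the 8 others. UGT72E2, the main enzyme of monolignol glucosylation, had signals from 89.4 to 148 and log2 changes with dexamethasone of -0.12 at 4 h and -0.09 at 24 h (-0.05 and -0.30 without both arrays that stood apart), with its highest signal on control 4 h replicate 2. UGT74B1, which adds the S-linked glucose in glucosinolate synthesis, had signals of 401 and 320 at 0 h and 282 and 291 in the 4 h controls, and changes with dexamethasone of 0.12 and 0.20, the former 0.30 without both arrays. UGT80B1 varied least of the 25 tested UGTs, from 57.6 to 67.8, a range of 0.22 log2 units. UGT73B1, the single tested gene of 5 listed for redox and pathogen response, had its 2 highest signals, 56.8 and 59.9, with dexamethasone at 4 h, above the controls at 38.7 and 55.6, and a log2 change of 0.30 (SE 0.27, adjusted p = 0.824 by limma) that was 0.06 without control 4 h replicate 1.

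GSTU25, given as the marker of the set, is a tau-class transferase known for conjugating the explosive TNT and for induction by foreign chemicals. Its signals were 37.0 and 37.9 at 0 h, 46.8 and 39.4 in the 4 h controls, 48.9 and 21.1 with dexamethasone at 4 h, 24.0 and 30.5 in the 24 h controls, and 50.4 and 23.1 with dexamethasone at 24 h. The replicates lay further apart in both dexamethasone groups than in any control group, and the treatments overlapped at both times. The value of 21.1 came from dexamethasone 4 h replicate 2, an array that stood apart. The mean of GSTU25 was 35.0 with dexamethasone against 43.1 at 4 h, and 36.8 against 27.2 at 24 h, and neither change passed. Without both arrays that stood apart, the log2 changes of GSTU25 with dexamethasone were 0.17 at 4 h and 0.15 at 24 h. Its neighbour GSTU26 correlated with it at 0.65 over the 10 arrays and at 0.18 over the 8 others. The lambda-class GSTL3, which acts by reduction rather than conjugation, ranged from 530 to 769 and did not pass anywhere. GSTF4, the one tested phi-class gene, had its highest signals in the 24 h controls, 32.2 and 33.7, against 23.3 and 17.2 at 0 h, a log2 change of 0.61 (SE 0.23, adjusted p = 0.971 by limma).

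Members varied over the arrays more than the typical probe set. The range over the 10 arrays exceeded 1 log2 unit in 10 of 25 tested UGTs (40%) and 5 of 11 tested GSTs (45.5%), beside 16.0% of all tested probe sets. The median range was 0.87 for UGTs, 0.92 for GSTs and 0.62 for all. Replicate arrays also differed more, by a median of 0.26 log2 units in UGTs and 0.24 in GSTs against 0.17 in all, so the wider range was not only between groups. The median signal of the tested probe sets was 56.1 in UGTs, 73.1 in GSTs and 78.3 in all; its part in the spread was not tested.

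**Figure D5:**
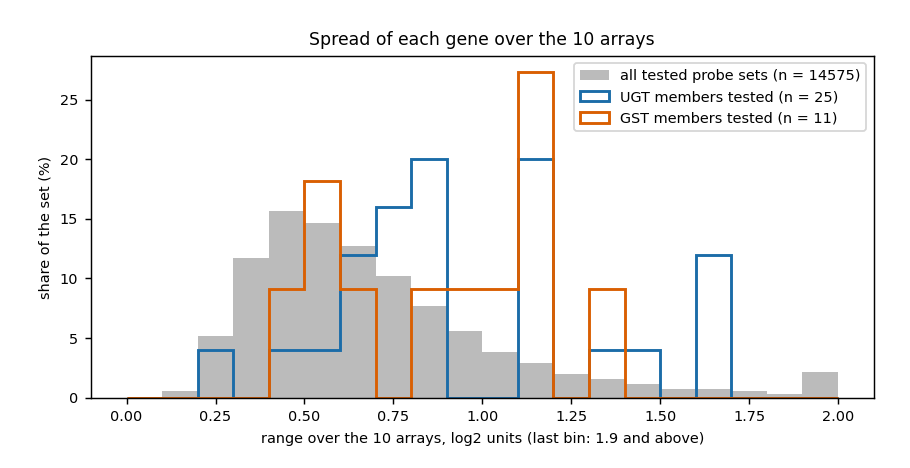
Share of probe sets, in percent of each set, by range over the 10 arrays in log2 units, for all 14575 tested probe sets (grey), 25 UGTs (blue) and 11 GSTs (orange); the last bin holds all ranges of 1.9 and above. Members past 1 log2 unit make up 40% of UGTs and 45.5% of GSTs against 16.0% of all.

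Of the 8 widest-ranging members, 4 in each family, 7 were too dim to test: UGT73D1, UGT76E2, UGT71B6, UGT72E3, GSTU15, GSTU21 and GSTF13. The remaining one was GSTU22, with signals of 31.7 and 64.9 at 0 h, 59.5 and 70.9 in the 4 h controls, 47.9 and 60.1 with dexamethasone at 4 h, 87.4 and 66.4 in the 24 h controls and 58.4 and 33.7 with dexamethasone at 24 h. Among 7742 other genes its pattern was most like those of AT5G06810, with r = 0.94 over the 10 arrays, WRKY6, with 0.90, and AT5G10190, with 0.88. For the 7 dim members the best correlations lay between 0.86 and 0.97, values that describe signals near background.

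Genes that lie close together were compared for their pattern across arrays. Of the 60 members, 39 had another member of the family within 5 protein-coding genes by the RefSeq order of assembly TAIR10.1, and 11 such pairs had both genes tested. Their correlations over the 10 arrays ranged from -0.59 to 0.65 with a median of -0.15, and 4 were above 0, while the other 344 pairs of tested genes within a family had a median of 0.05. Over the 8 arrays other than those that stood apart, the median of the 11 pairs was 0.10, with 7 above 0, and that of the other pairs was 0.08. In the cluster of GSTU20 to GSTU23, GSTU20 correlated at -0.42 with GSTU22 and at 0.54 with GSTU23, and over the 8 arrays at -0.02 and 0.18. All pairs share the same arrays, so these correlations are a description.

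Most pairs of tested members join genes of different subfamilies or families, and so did the pairs with the highest correlations. UGT76E11 and UGT78D1 correlated at 0.89 over the 10 arrays and at 0.96 over the 8 arrays other than those that stood apart. UGT76C2 correlated at 0.86 with both GSTU18 and UGT71B1, the other members that passed as lower at 24 h. Since these genes all passed in the same direction on these same arrays, their likeness is no separate result. UGT78D1 and UGT78D2 correlated at 0.81. UGT76B1 and UGT87A2 correlated at 0.83 over the 10 arrays but at 0.46 over the 8, and UGT72E1 and UGT85A2 at 0.78 and 0.35.

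Few other genes of the surrounding pathways had a named probe set. Of 14 symbols listed for glutathione synthesis and recycling, the glutathione reductase genes GR1 and EMB2360 were tested. Both rose between 4 h and 24 h over both treatments, by log2 changes of 0.45 and 0.37 (limma adjusted p = 0.0132 and 0.0277), in the opposite direction to GSTU18 and the UGTs that passed. Of 11 symbols for xenobiotic and electrophile response, both tested genes encode reductases of reactive carbonyls. They went opposite ways: AOR rose by a log2 change of 1.17 (limma adjusted p = 7.3e-05) and AER fell by 0.39 (limma adjusted p = 0.0384). Against 0 h in the controls, AOR had log2 changes of -1.25 at 4 h (limma adjusted p = 0.00145) and -0.01 at 24 h. GR1, EMB2360 and AER had -0.50, -0.29 and 0.23 at 4 h and -0.05, 0.07 and -0.10 at 24 h, none of which passed. None of these 4 genes passed with dexamethasone at 4 h or at 24 h. DFR of anthocyanin synthesis and BCAT4 of glucosinolate synthesis were the single tested genes of their lists, of 21 and 15 symbols, and did not pass in these comparisons. No single-gene probe set carried any of the 30 symbols of vacuolar conjugate pumps or the 8 of camalexin synthesis in the annotation used, and GRX480, the one matched of 16 symbols for TGA factors and their partners, was too dim to test.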

How the data were processed

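Affymetrix ATH1 arrays of 10 samples were analysed. Each array's values are signal intensities on a linear scale that the authors deposited. The submitters' processing notes name MAS5 and GCOS, without versions; the scaling target and detection calls were not given in the sources used here. MAS5 scales each array to a common level, so a change is relative to the other transcripts of that array. Of 22810 probe sets, 64 control probe sets were left out. Signals were turned into log2(signal + 4.35), the constant being percentile 20 of all signals, which understates changes of dim genes. Testing was limited to the 14575 probe sets that exceeded percentile 40 of an array at least on 2 arrays. A single limma fit (3.58.1, R 4.3.3) covered the 5 groups, with 5 residual degrees of freedom, an intensity trend and Benjamini-Hochberg adjustment over all of them at 0.05; all tests were two-sided. The procedure was tested on simulated data. Tables and figures used Python 3.11.15, pandas 2.3.3, scipy 1.17.1 and matplotlib 3.10.9.

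Groups came from the labels and every array column had a sample. Probe sets were named from GEO's platform annotation, those with several genes were left out, and 60 of 60 members matched RefSeq (assembly TAIR10.1), used for names and gene order only. The members and gene lists were chosen with earlier results of these data known. Named genes were members passing in any comparison, the 4 of each family with the smallest p in each dexamethasone comparison, the tested genes of the role lists, the 4 of each family with the widest range, and GSTU25; members named for other time comparisons, for the arrays that stood apart or for pairs were chosen after their values were seen. The arrays that stood apart were set aside in 1 alternative; other alternatives are in the closing section. The number of arrays limits the precision, no coordinates are given since the builds are not named, and the signal levels of different probe sets were not compared as transcript amounts.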

Additional observations from a re-analysis of the deposited data

Results flagged for a closer look

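UGT84A4, which makes glucose esters of hydroxycinnamic acids, was flagged because both dexamethasone arrays lay below both controls at 4 h and above both controls at 24 h. Its signals at 4 h were 22.3 and 22.2 with dexamethasone and 25.8 and 41.2 without, and at 24 h 33.4 and 27.9 with dexamethasone and 16.2 and 24.6 without. The effect at 24 h minus that at 4 h was 0.99 on the log2 scale and did not pass (limma adjusted p = 0.832). Without the 2 arrays that stood apart, on which UGT84A4 had 2 of its lowest signals, 16.2 and 22.2, the difference was 0.74 (limma adjusted p = 0.999). Arrays that separate in opposite ways at the 2 times were found in 1 of the 36 tested members (2.78%) and in 860 of 14575 probe sets (5.90%). The pattern was thus no more frequent among the members than over all probe sets.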

How the results depend on the processing

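Under 19 alternative fits, 277 of 304 counts of passing members stayed within 1.5 times. Most of these counts were 0 in the main fit, and a 0 that stayed 0 was included. Of 618 log2 changes from 33 results of named members, 584 kept their direction and side of the threshold. Many could not move in size, since arrays of groups not compared do not enter a log2 change. These totals are therefore no measure of robustness. The 4 changes of sign were those of UGT72E1 with dexamethasone at 4 h, to -0.033, and GSTU26 at 4 h, to 0.0016. Each occurred without dexamethasone 4 h replicate 2 and without both arrays that stood apart. Leaving out 1 array gave -0.033 to 1.56 for UGT72E1 and -0.64 to 0.0016 for GSTU26. The 33 results did not cover every named member. GSTU25 with dexamethasone at 4 h was left out, and its change turned from below 0 to 0.17 without both arrays. Among all 36 tested members, leaving out both arrays turned more signs, in 12 at 4 h and 10 at 24 h with dexamethasone. UGT76B1, UGT71C3 and GSTU25 were among them. In the controls between 4 h and 0 h, 2 UGTs passed with only the arrays of the groups compared. In that fit 574 of all probe sets passed, against 383 in the main fit. Between 24 h and 4 h in the controls, 3 UGTs and 1 GST passed with only the arrays of the groups compared, where 443 of all probe sets did. With the stricter filter 1 GST passed, where 437 of all probe sets did, against 495 in the main fit. Over both treatments, 1 UGT passed with the stricter filter, which tested 16 UGTs, and without both arrays 6 UGTs and 0 GSTs did. Without any filter the count of UGTs was the same but UGT73C2 (-0.81, limma adjusted p = 0.0282), whose signal is dim, stood in place of UGT76C2. Over both treatments, 968 of all probe sets passed with the stricter filter and 835 without any filter. Leaving out 1 array gave 0 to 1 UGTs for dexamethasone at 4 h, for its difference between times and for 4 h against 0 h in controls. It gave 0 to 3 UGTs and 0 to 1 GSTs for 24 h against 4 h in controls, and 1 to 4 UGTs and 0 to 2 GSTs for both treatments. Over all probe sets, leaving out 1 array moved the calls to 1 to 80 for dexamethasone at 4 h, 1 to 8 at 24 h, 1 to 5 on average and 0 to 14 for the difference, and to 135 to 485, 0 to 4, 154 to 721 and 650 to 1117 for 4 h against 0 h, 24 h against 0 h, 24 h against 4 h in controls and over both treatments. Without the intensity trend, 228 and 327 probe sets passed for 4 h against 0 h and 24 h against 4 h in controls, and 653 did for the former without both arrays that stood apart; with dexamethasone, 3 passed at 4 h and 6 on average without both arrays, 1 on average with the constant 1, quantile normalization or the replicate block, and 0 in each with the stricter filter. The cause of these shifts was not tested. The deviations of same-numbered replicates correlated between groups at -0.42 to 0.18. The 2 arrays that stood apart carry different numbers, so whether the numbers pair the samples is not known from these values. With the replicate block, UGT78D1 also passed over both treatments (-0.74, limma adjusted p = 0.0364), which gave 3 UGTs and 1 GST. Each member had 1 probe set and no RefSeq symbol differed, so these alternatives gave no values of their own.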

Other observations

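Besides the 60 single-gene members, 3 UGT probe sets each match 2 genes and were left out of every count. That of UGT73B2 and UGT73B3, glucosyltransferases of flavonoids and of pathogen response, had signals from 71.5 to 135 and log2 changes with dexamethasone of -0.07 at 4 h and -0.34 at 24 h. That of UGT89B1 and AT1G73885 had signals from 94.5 to 129 and changes of 0.12 and -0.14. That of UGT71D1 and AT2G29710 had signals from 52.1 to 73.6 and changes of -0.01 and 0.19. The signal of such a probe set cannot be assigned to either gene.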
